A study of Homo sapiens with 6 samples.

Results

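The transcripts of 10 ligand-sensing receptors of the liver were followed in Hep3B cells after knockdown of DAGLA: NR1I2, NR1I3, NR1H2, NR1H3, NR1H4, NR0B2, PPARA, RXRA, VDR and AHR. They were chosen by gene symbol, through the Ensembl identifier of each row, and all 10 were found among the 29908 genes of the expression table. Hep3B is an established human hepatocellular carcinoma line. Hep3B-Con cells had been infected with a control lentivirus, named an empty vector in the series design text but shControl in the sample titles. The study's methods speak of negative sequences, so whether the control carried a hairpin is unresolved. Hep3B-KD cells had been infected with lentivirus carrying a short hairpin RNA (shDAGLA) against DAGLA. DAGLA encodes diacylglycerol lipase alpha, the enzyme that makes the endocannabinoid arachidonoylglycerol. Both lines were infected at a multiplicity of infection of 5 and selected with puromycin, and 3 biological replicates of each were sequenced. The comparison asks how the transcriptome of a hepatocellular carcinoma line changes when DAGLA is lowered. It rests on a single line and a single hairpin, so that effects of the hairpin, of the line and of DAGLA cannot be told apart.

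All receptors but AHR belong to the nuclear receptor family. PXR (NR1I2) and CAR (NR1I3) sense drugs and other foreign compounds, and switch on the genes that oxidise, conjugate and export them. The aryl hydrocarbon receptor AHR, a basic helix-loop-helix protein, does the same for aromatic hydrocarbons, with ARNT as its partner. LXRα (NR1H3) and LXRβ (NR1H2) sense oxysterols, and FXR (NR1H4) senses bile acids. FXR induces NR0B2, which encodes SHP, a receptor without a DNA-binding domain that represses bile acid synthesis. PPARα (PPARA) senses fatty acids and drives their oxidation, and VDR binds the active form of vitamin D. RXRα (RXRA) is the shared partner that PXR, CAR, LXR, FXR, PPARα and VDR need to bind DNA.

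The hairpin target is shown because it defines the perturbation. It lies in exon 18 of 20 of DAGLA-201, in the coding sequence, at chr11:61740504-61740522 on the plus strand of GRCh38, and 0 other genes held the whole target in a GENCODE transcript.
shDAGLA target: gcgacaacaaggccttcaa

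Promoter sequences were matched by symbol for 8 of the 10 receptors, as 14 windows of 300 bases (250 before and 50 after a RefSeq start, GRCh38.p14). Both strands were searched for AGGTCA, the half-site that RXR heterodimers bind, and for GCGTG, the core of the AHR and ARNT element. The half-site was found in 2 of the 14 windows, 1 of NR1H3 and 1 of NR1H4, against 13.8% of the 34943 windows of all genes. The AHR core was found in 4 of the 14, 1 each of NR1H2, NR1H3, PPARA and AHR, against 36.5% of all windows. Of the windows below, NR1H4 is the receptor gene that rose and SLC51B is the FXR target with the largest fall, and the capitals mark AGGTCA or its complement. AHR and its target CYP1A1 both fell, and there the capitals mark GCGTG. Matches of the 2 motifs overlapped 0 times in these windows, and a match is a run of letters, not evidence of binding.
NR1H4 (chr12:100503110-100503409, plus strand): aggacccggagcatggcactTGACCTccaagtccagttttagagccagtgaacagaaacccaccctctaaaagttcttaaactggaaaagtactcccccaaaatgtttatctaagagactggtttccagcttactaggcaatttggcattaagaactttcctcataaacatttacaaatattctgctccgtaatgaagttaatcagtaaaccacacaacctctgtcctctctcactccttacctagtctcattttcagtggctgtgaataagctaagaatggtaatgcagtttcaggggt
SLC51B (chr15:65045137-65045436, plus strand): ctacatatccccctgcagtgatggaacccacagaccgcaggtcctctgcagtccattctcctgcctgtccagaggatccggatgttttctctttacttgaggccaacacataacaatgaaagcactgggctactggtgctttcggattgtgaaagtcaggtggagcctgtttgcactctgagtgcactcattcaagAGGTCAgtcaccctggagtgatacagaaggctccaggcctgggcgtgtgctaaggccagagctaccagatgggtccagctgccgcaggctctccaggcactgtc
AHR (chr7:17298402-17298701, plus strand): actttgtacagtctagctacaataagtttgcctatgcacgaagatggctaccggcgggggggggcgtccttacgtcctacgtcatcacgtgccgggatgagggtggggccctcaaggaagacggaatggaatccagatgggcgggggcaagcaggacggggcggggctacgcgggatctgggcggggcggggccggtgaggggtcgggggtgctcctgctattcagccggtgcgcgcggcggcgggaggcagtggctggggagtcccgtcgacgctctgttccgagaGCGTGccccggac
CYP1A1 (chr15:74725479-74725778, minus strand): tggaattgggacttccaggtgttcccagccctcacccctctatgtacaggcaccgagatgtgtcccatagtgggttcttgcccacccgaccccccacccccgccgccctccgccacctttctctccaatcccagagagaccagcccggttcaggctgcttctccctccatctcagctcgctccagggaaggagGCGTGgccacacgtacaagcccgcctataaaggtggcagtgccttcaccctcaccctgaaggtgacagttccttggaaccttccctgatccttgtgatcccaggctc
The NR1H4 match began 230 bases before the start site and the SLC51B match 54 bases before it. The CYP1A1 core began 57 bases before the start and the AHR core lay 38 bases after it.

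The libraries held 15861039 to 17572714 reads. DAGLA fell from 9.42, 9.40 and 9.02 FPKM (fragments per kilobase of exon, scaled to the depth of the library) in Hep3B-Con to 4.62, 4.46 and 4.78 in Hep3B-KD, a log2 fold change of -0.99 (SE 0.04, limma adjusted p = 5.25e-06). All 7 hepatocyte markers (ALB, AFP, APOA1, APOB, TTR, SERPINA1 and TF) were expressed and were higher in Hep3B-KD, their summed level being 2508 to 2556 FPKM in Hep3B-Con and 4043 to 4062 in Hep3B-KD. The 3 cholangiocyte markers summed to 153 to 199 FPKM in Hep3B-Con and 203 to 244 in Hep3B-KD, with KRT19 and SOX9 higher and KRT7 lower. Of the 5 stellate or fibroblast markers analysed, COL1A1 and PDGFRB were tested and lower, and the list summed to 3.45 to 3.77 and 2.43 to 2.50 FPKM. COL1A1, at 0.745 FPKM on average in Hep3B-Con and 0.271 in Hep3B-KD, was tested only through its level in Hep3B-Con, the filter being a mean of 0.5 FPKM. The 4 endothelial markers summed to 0.194 to 0.217 and 0.278 to 0.385 FPKM. The leukocyte marker PTPRC was near 0, at 0.0276 and 0.0112 FPKM on average, and the other leukocyte markers were not analysed here. The part of these marker shifts in the results below was not tested. All libraries are of the Hep3B line, and bulk RNA cannot tell fewer of its cells expressing a marker from less RNA per cell.

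The receptors differed widely in level. In Hep3B-Con, NR0B2 was the highest at 32.4 ± 0.875 FPKM (mean ± SD, n = 3 here and below), followed by RXRA at 20.2 ± 0.835, AHR at 19.6 ± 1.05 and NR1H2 at 19.5 ± 0.430. The ranges of RXRA and AHR overlapped, as did those of AHR and NR1H2, so that these neighbours were not separated. NR1H3 followed at 6.56 ± 0.390 and NR1H4 at 3.40 ± 0.170. NR1I3 (1.73 ± 0.314) and PPARA (1.61 ± 0.137) overlapped each other. VDR stood at 0.370 ± 0.193 and NR1I2 at 0.0212 ± 0.0366. Among the 46 nuclear receptor genes of the table, NR0B2 ranked 2 in both groups, below HNF4A, the hepatocyte master regulator, at 56.2 ± 0.262 FPKM in Hep3B-Con.

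**Figure D1:**
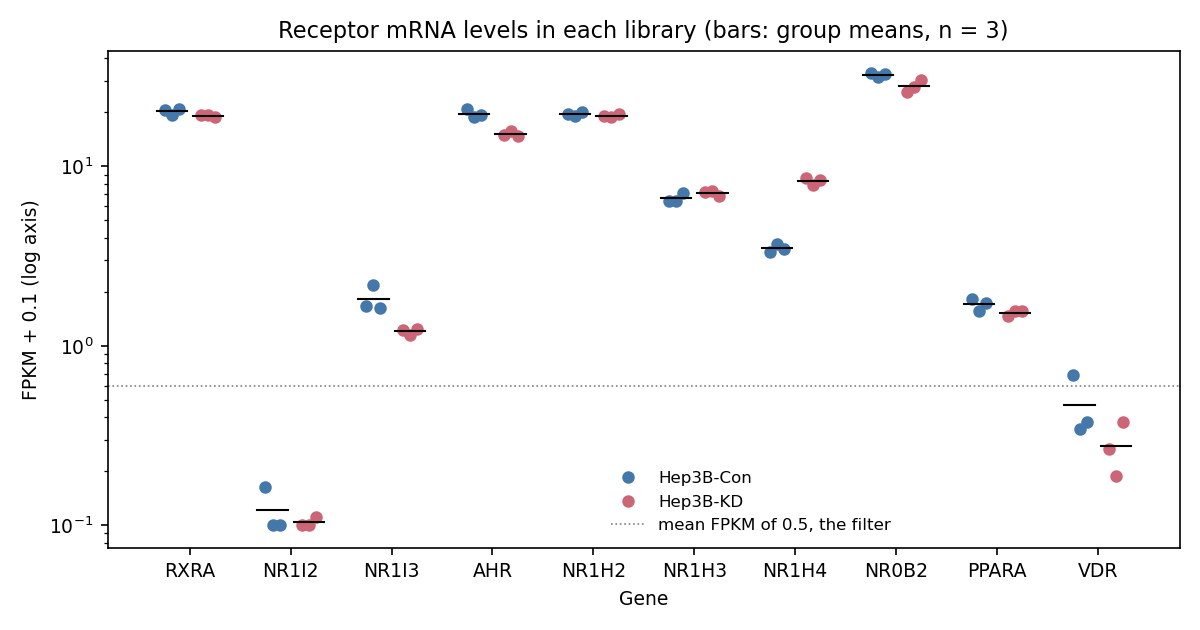
Level of each receptor gene in each library, as FPKM + 0.1 on a log axis, with points for the 3 Hep3B-Con and 3 Hep3B-KD libraries, bars for group means and a dotted line at the filter of 0.5 FPKM. NR1H4 is the gene whose Hep3B-KD points lie far above its Hep3B-Con points, and NR1I2 and VDR lie at the bottom.

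The order of 2 receptors was exchanged in Hep3B-KD: NR1H4 (7.78 to 8.50 FPKM) lay above NR1H3 (6.77 to 7.18), whereas in Hep3B-Con NR1H3 (6.33 to 7.01) lay above NR1H4 (3.25 to 3.58). PPARA (1.36 to 1.46) lay above NR1I3 (1.06 to 1.15) in Hep3B-KD. NR1H2 and RXRA, at 19.1 ± 0.308 and 19.1 ± 0.254, overlapped, and AHR fell to a place of its own beneath them at 15.0 ± 0.503.

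Genes were tested with limma on log2(FPKM + 0.1) where the mean over the 6 libraries was at least 0.5 FPKM, and called at a Benjamini-Hochberg adjusted p under 0.05. A log2 fold change is the mean of Hep3B-KD minus that of Hep3B-Con on that scale. Of the 10 receptors, 8 were tested and 4 were called, against 59.9% of the 14221 genes tested. NR1H4 was higher (36.1% of all genes were called higher) and NR1I3, NR0B2 and AHR were lower (23.8% were called lower). Only NR1H4 also passed a 2-fold change, as did 8.83% of all genes. In 5 of the 8 the groups did not overlap, which held for 66.9% of all genes. The receptors were thus not called more often than genes in general. The median log2 fold change was -0.12 over the 8 receptors and 0.11 over all genes tested, and 7 of the 8 lay below the latter value. The exact permutation test over 3 against 3 libraries cannot go below p = 0.1, and gave that value for NR1H4, NR1I3, NR0B2, AHR and PPARA.

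**Figure D2:**
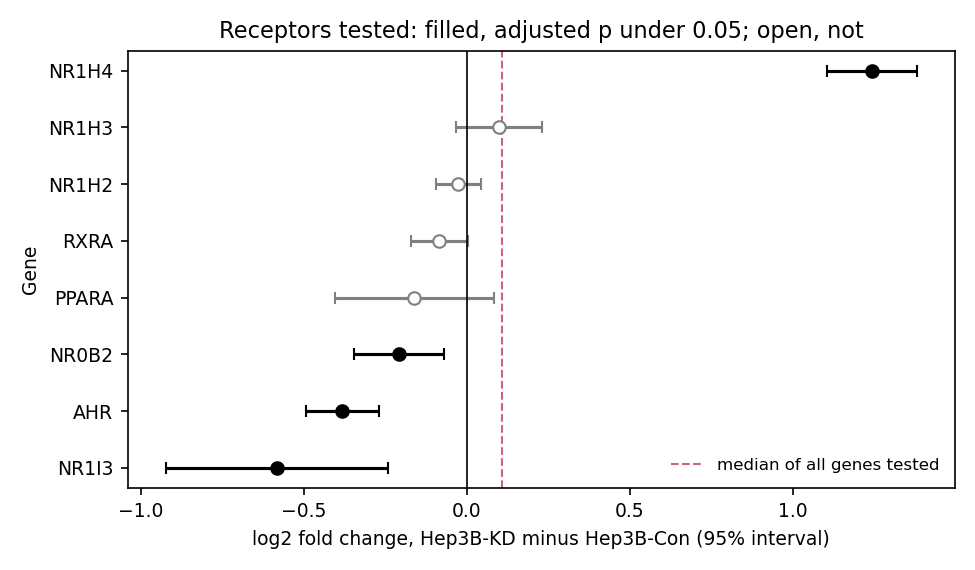
Log2 fold change, Hep3B-KD minus Hep3B-Con, with its 95% interval for the 8 receptor genes tested, filled where the adjusted p is under 0.05, with a dashed line at the median of all genes tested (0.11). NR1H4 stands alone at 1.24, and the intervals of NR0B2, AHR and NR1I3 lie below 0.

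RXRA, the partner of the heterodimers, was measured at 20.6, 19.3 and 20.8 FPKM in Hep3B-Con and at 19.3, 19.2 and 18.8 in Hep3B-KD. The groups just overlapped. Its log2 fold change of -0.08 (95% interval -0.17 to 0.0033, adjusted p = 0.0877) did not pass, although it passed with limma's voom on the recovered reads, after centring on the median log ratio and without Hep3B-Con replicate 2. RXRB, which encodes the partner RXRβ, was measured at 17.4, 17.2 and 16.5 FPKM in Hep3B-Con and 19.7, 18.8 and 18.8 in Hep3B-KD. It rose by a log2 fold change of 0.17 (SE 0.03, adjusted p = 0.00517), which did not pass after median centring (0.06), and 6.22% of its exon bases lie in SLC39A7 on the opposite strand, a gene of 95.4 FPKM on average. Within libraries the ratio of RXRA to RXRB was 1.19, 1.12 and 1.26 in Hep3B-Con and 0.977, 1.02 and 0.997 in Hep3B-KD. RXRA thus lay above RXRB in every Hep3B-Con library and on either side of it in Hep3B-KD. The log2 ratio fell by 0.25 with no overlap (two-sided exact permutation p = 0.1, the smallest possible, and 0.2 after adjustment over the 2 ratios). RXRG, the third RXR gene, was not analysed here.

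The transcript of NR1I2 (PXR) was barely detected. It gave 6, 0 and 0 reads in Hep3B-Con and 0, 0 and 1 in Hep3B-KD, below the filter. The ratio of summed reads scaled to depth, Hep3B-KD to Hep3B-Con, was 0.177 with an exact 95% interval of 0.00385 to 1.46, so no difference was detectable at this depth. Intervals on reads cover counting error only. CYP3A4, the main drug-oxidising enzyme that PXR induces, was at 0 to 2 reads per library.

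NR1I3 (CAR) was measured at 1.57, 2.09 and 1.53 FPKM in Hep3B-Con, or 91, 120 and 84 reads, and at 1.13, 1.06 and 1.15 in Hep3B-KD, or 59, 56 and 63 reads. The groups did not overlap, and Hep3B-Con replicate 2 was the highest. The mean was 1.56-fold lower in Hep3B-KD, with a log2 fold change of -0.58 (95% interval -0.92 to -0.24, adjusted p = 0.0111). Of the exon bases of NR1I3, 20.0% lie in TOMM40L on the opposite strand. TOMM40L stood at 17.3 FPKM in Hep3B-Con and 15.8 in Hep3B-KD and was itself lower (log2 fold change -0.13, adjusted p = 0.0161). Whether strand was used in counting is not given in the sources used here, so that reads of NR1I3 and TOMM40L may be mixed.

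Of the 18 PXR and CAR target genes listed, 17 were in the table and 7 were tested, 10 being below the filter. Of the 7, 3 were higher, 3 were lower and 1 did not pass, and the median log2 fold change was -0.07. Over all genes 36.1% were called higher and 23.8% lower. SULT2A1, a sulfotransferase of steroids and bile acids, rose from 2.46, 2.23 and 2.18 FPKM to 26.2, 26.3 and 25.8, 11.4-fold, the largest rise of the 7 tested (log2 fold change 3.46, SE 0.05, adjusted p = 1.03e-07). ABCB1, which encodes the drug exporter P-glycoprotein, rose from 17.6, 18.0 and 17.5 FPKM to 22.2, 20.7 and 20.8 (log2 fold change 0.26, adjusted p = 0.000644). UGT1A1, which conjugates bilirubin, had the largest fall of the 7, from 2.27, 2.37 and 2.89 FPKM to 0.762, 0.864 and 0.688 (log2 fold change -1.58, adjusted p = 8.75e-05), but 49.9% of its exon bases are shared with UGT1A10 and parts with other UGT1A genes, so that its value is uncertain. The genes of drug metabolism thus moved apart from each other and not in one direction.

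CYP2B6, the classical target of CAR, lay under the filter and differed between the groups all the same. It gave 53, 51 and 37 reads (0.801, 0.779 and 0.590 FPKM) in Hep3B-Con and 4, 4 and 6 reads (0.0670, 0.0662 and 0.0960 FPKM) in Hep3B-KD. Summed reads scaled to depth were 9.47-fold lower (exact 95% interval 5.46 to 17.8), and limma without the filter gave a log2 fold change of -2.22 (SE 0.26, adjusted p = 0.00103). Of the other genes under the filter, CYP3A5, GSTA1 and GSTA2 also passed without it, and are named here after their values were seen. GSTA1, a glutathione transferase, had 0, 0 and 1 reads in Hep3B-Con and 17, 9 and 13 in Hep3B-KD, a ratio of 41.5 scaled to depth (exact 95% interval 7.02 to 1680). CYP3A5, a drug oxidase close to CYP3A4, had 13, 9 and 10 reads and 34, 35 and 35.

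AHR was lower in Hep3B-KD. It was measured at 20.8, 18.8 and 19.2 FPKM in Hep3B-Con, from 2580 to 2952 reads, and at 14.8, 15.6 and 14.6 in Hep3B-KD, from 1897 to 2022 reads. The groups were well apart, with a gap between the lowest Hep3B-Con and the highest Hep3B-KD library. The mean was 1.31-fold lower, with a log2 fold change of -0.38 (95% interval -0.49 to -0.27, adjusted p = 0.000471). Of its exon bases, 29.4% are shared on the same strand with AC019117.2, a gene model not analysed here.

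Among the genes that act with AHR, 5 of 6 were tested and all 5 were called, where 59.9% of all genes were. ARNT, with which AHR binds DNA, rose from 14.2, 14.3 and 14.6 FPKM to 18.0, 17.0 and 17.2 (log2 fold change 0.28, SE 0.03, adjusted p = 0.000319). HSP90AB1, a chaperone that holds AHR in the cytosol, fell from 882 to 899 FPKM to between 681 and 693 (log2 fold change -0.38, adjusted p = 2.36e-06). PTGES3 and HSP90AA1, both chaperone genes, were higher by 0.10 and 0.11 on the log2 scale. These values lay close to the median of all genes (0.11), and after median centring 3 of the 5 were called.

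The AHR target genes that were called all moved the way AHR did. Of the 11 listed, 6 were tested, 5 were lower, 0 were higher and 1, AHRR, did not pass (log2 fold change 0.05). The median was -0.34, where all genes tested had a median of 0.11 and 23.8% were called lower. The difference from this share was not tested. CYP1A1, the AHR-induced oxidase of aromatic hydrocarbons, fell from 22.4, 22.7 and 21.6 FPKM to 17.5, 16.8 and 17.5 (log2 fold change -0.36, SE 0.03, adjusted p = 8.80e-05). TIPARP, an ADP-ribosyltransferase that restrains AHR, fell from 23.2, 24.3 and 21.7 FPKM to 18.4, 18.8 and 19.1 (log2 fold change -0.29, adjusted p = 0.00117). NQO1, a quinone reductase, had the largest fall, from 5.46, 5.89 and 5.17 FPKM to 2.75, 3.20 and 2.54 (log2 fold change -0.94, SE 0.10, adjusted p = 0.000183). In each of these the 2 groups were apart, and 17.7% of the exon bases of NQO1 lie in AC092115.2, an antisense gene not analysed here. NFE2L2, the oxidative stress regulator that also drives NQO1, and CYP1B1 complete the 5, at log2 fold changes of -0.32 and -0.52, and were named after their values were seen. CYP1A2, under the filter, went the other way, with 1, 1 and 1 reads in Hep3B-Con and 5, 6 and 11 in Hep3B-KD (limma without the filter, adjusted p = 0.0203), and was also named afterwards.

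NR1H2 and NR1H3, which encode the oxysterol receptors, did not pass. NR1H2 was measured at 19.5, 19.0 and 19.9 FPKM in Hep3B-Con and 19.1, 18.8 and 19.4 in Hep3B-KD. The difference on the log2 scale was -0.03 (95% interval -0.10 to 0.04, adjusted p = 0.467), an interval of 0.936 to 1.03 as a fold. NR1H3 was measured at 6.33, 6.35 and 7.01 FPKM in Hep3B-Con and 7.14, 7.18 and 6.77 in Hep3B-KD, with overlapping groups. Its log2 fold change was 0.10 (95% interval -0.03 to 0.23, adjusted p = 0.163), and passed without Hep3B-Con replicate 3 (0.15, adjusted p = 0.0481). The sign of both was set by the scaling: NR1H2 turned to 0.00054 after rescaling to TPM and NR1H3 to -0.0045 after median centring. The ratio of NR1H2 to NR1H3 ran from 2.84 to 3.08 in Hep3B-Con and from 2.62 to 2.87 in Hep3B-KD. These ranges overlapped, with a difference of -0.13 in the log2 ratio (two-sided exact permutation p = 0.2, adjusted p = 0.2).

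Of the 18 LXR target genes listed, 12 were tested, 7 were higher, 3 were lower and 2 did not pass, with a median of 0.42. The shares over all genes were 36.1% higher and 23.8% lower. ABCA1, which exports cholesterol to apolipoprotein A-I, rose from 9.03, 9.80 and 9.36 FPKM to 15.8, 15.5 and 15.3 (log2 fold change 0.72, SE 0.04, adjusted p = 1.12e-05). APOE, an apolipoprotein of remnant particles, had the largest rise, from 365, 308 and 330 FPKM to 544, 596 and 579 (log2 fold change 0.78, adjusted p = 6.99e-05). MYLIP, the ubiquitin ligase that degrades the LDL receptor, rose from 1.31, 1.16 and 1.47 FPKM to 2.33, 1.89 and 2.30 (log2 fold change 0.69, adjusted p = 0.00332). SREBF1, the transcription factor gene through which LXR induces lipogenesis, had the largest fall, from 24.9, 23.1 and 24.7 FPKM to 18.3, 18.7 and 19.5 (log2 fold change -0.36, SE 0.04, adjusted p = 0.000319). The other two, named after their values were seen, were SCD, a fatty acid desaturase (-0.31), and FASN, fatty acid synthase (-0.18). MLXIPL, a transcription factor gene of lipogenesis on the same list, also named afterwards, rose (0.48, adjusted p = 0.00234). ABCG1, a second cholesterol exporter, was at 1 to 6 reads per library.

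NR1H4 (FXR) had the largest change of the receptors. It was measured at 3.25, 3.58 and 3.38 FPKM in Hep3B-Con, or 207, 226 and 204 reads, and at 8.50, 7.78 and 8.31 in Hep3B-KD, or 489, 453 and 500 reads. Every Hep3B-KD library lay above every Hep3B-Con library, far beyond the spread within either group. The mean rose 2.41-fold, with a log2 fold change of 1.24 (95% interval 1.11 to 1.38, adjusted p = 6.09e-06). It passed under all 16 alternative settings, at log2 fold changes of 1.06 to 1.28.

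NR0B2 (SHP), itself a gene that FXR induces, went the other way. It was measured at 32.9, 31.4 and 32.8 FPKM in Hep3B-Con and at 26.0, 27.8 and 30.4 in Hep3B-KD. Hep3B-KD replicate 3 lay close to the lowest Hep3B-Con library, but the groups did not overlap. The mean was 1.15-fold lower, with a log2 fold change of -0.21 (95% interval -0.34 to -0.07, adjusted p = 0.0184). It no longer passed without Hep3B-Con replicate 1 (limma adjusted p = 0.0554), Hep3B-Con replicate 3 (0.0559) or Hep3B-KD replicate 2 (0.0520), nor after quantile normalization (0.0771).

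The FXR target genes did not follow the receptor as a group. Of the 13 listed, 9 were tested, 2 were higher, 5 were lower and 2 did not pass, and the median was -0.17. Among all genes 36.1% were called higher and 23.8% lower. SLC51B, a subunit of the bile acid exporter OSTα/β, had the largest fall, from 2.36, 2.20 and 2.49 FPKM to 0.335, 0.861 and 0.256 (log2 fold change -2.21, SE 0.36, adjusted p = 0.00185). It gave 39, 36 and 39 reads in Hep3B-Con and 5, 13 and 4 in Hep3B-KD, and passed the filter only through its level in Hep3B-Con. FGF19, the hormone that represses bile acid synthesis, fell from 9.19, 6.61 and 7.59 FPKM to 2.83, 4.58 and 3.03 (log2 fold change -1.16, SE 0.20, adjusted p = 0.00234). In both genes Hep3B-KD replicate 2 was the highest of its group. SDC1, a heparan sulfate proteoglycan, had the largest rise, from 20.0, 20.2 and 19.2 FPKM to 31.8, 28.7 and 31.7 (log2 fold change 0.63, adjusted p = 4.06e-05). ABCB11, which encodes the bile salt export pump and is the best known FXR target of the hepatocyte, was at 0 to 2 reads per library, so that it could not be compared.

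**Figure D3:**
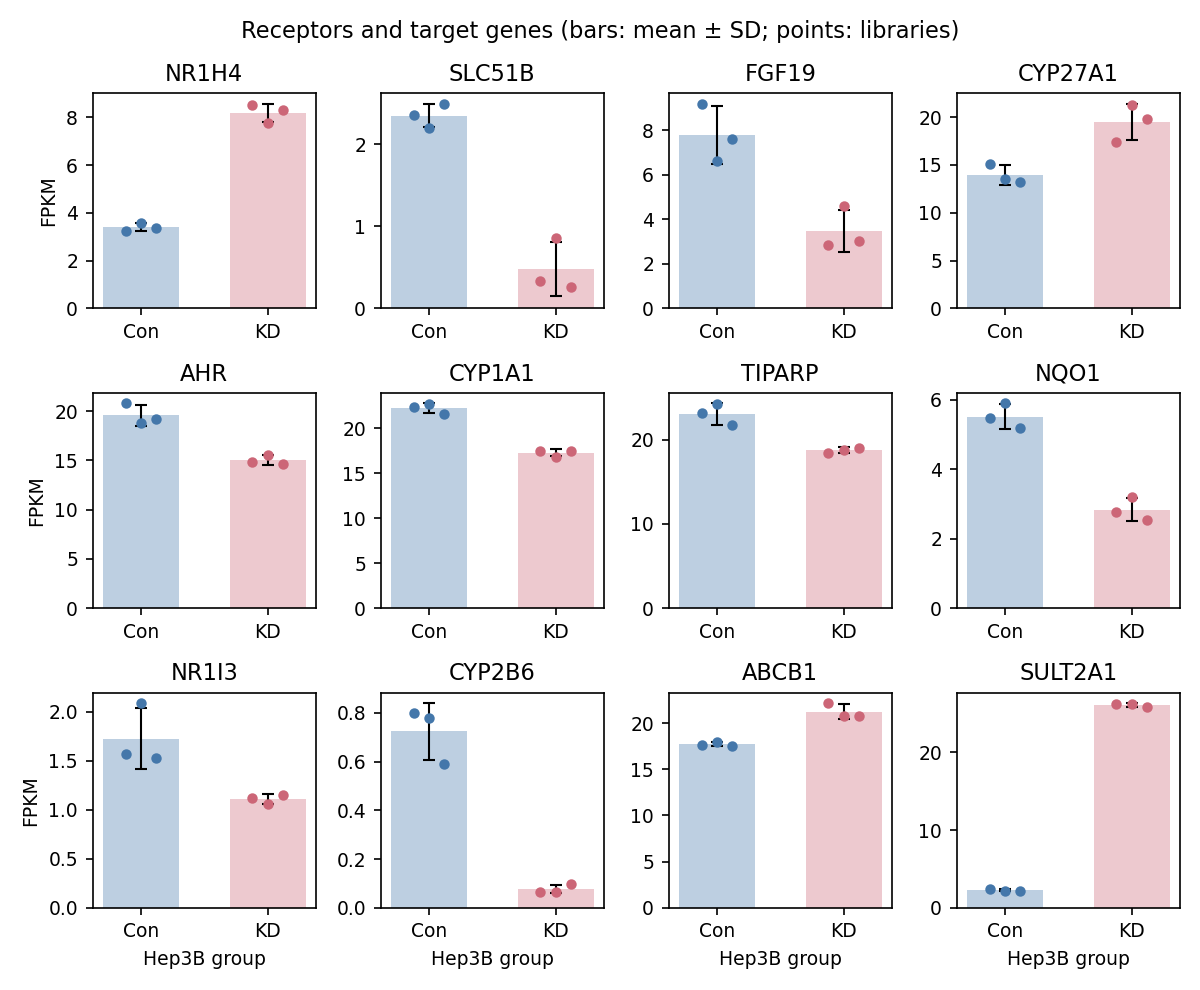
FPKM of 3 receptor genes and of target or pathway genes in Hep3B-Con and Hep3B-KD, with bars for the mean, error bars for the SD and points for the 3 libraries of each group. NR1H4 is higher while SLC51B and FGF19 are lower, AHR is lower together with CYP1A1, TIPARP and NQO1, and NR1I3 and CYP2B6 are lower while SULT2A1 is higher.

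The genes of bile acid and oxysterol synthesis and uptake that were called were all higher: 6 of the 7 tested, with a median of 0.48, where 36.1% of all genes were called higher. The tested genes were all of synthesis. SLC10A1, the uptake gene of the list, was under the filter at 1, 3 and 3 against 4, 4 and 4 reads, and was named after its values were seen. CYP27A1, which makes oxysterols and opens the acidic pathway of bile acid synthesis, rose from 15.1, 13.5 and 13.2 FPKM to 17.4, 21.2 and 19.8 (log2 fold change 0.48, SE 0.08, adjusted p = 0.00256). AKR1D1, a reductase of bile acid intermediates, had the largest rise among those tested, from 0.386, 0.391 and 0.524 FPKM to 1.16, 1.25 and 1.31 (log2 fold change 1.33, adjusted p = 0.000776). It passed the filter only through its level in Hep3B-KD. CYP7A1, the rate-limiting enzyme of the classical pathway, was at 0 to 2 reads per library. Its level was near 0 in both groups and could not be compared.

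PPARA was measured at 1.73, 1.46 and 1.62 FPKM in Hep3B-Con and at 1.36, 1.46 and 1.45 in Hep3B-KD. The highest Hep3B-KD library lay just under the lowest Hep3B-Con library. The log2 fold change of -0.16 (95% interval -0.40 to 0.08, adjusted p = 0.216) did not pass, and its interval as a fold ran from 0.756 to 1.06. It passed after quantile normalization (-0.41, adjusted p = 0.0127).

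The PPARα target genes moved in both directions. Of the 21 listed, 15 were tested, 5 were higher, 7 were lower and 3 did not pass, with a median of -0.19. The shares over all genes were 36.1% higher and 23.8% lower. CREB3L3, a liver transcription factor of fasting, had the largest rise, from 0.999, 0.967 and 1.10 FPKM to 4.64, 4.56 and 5.09 (log2 fold change 2.12, SE 0.08, adjusted p = 3.18e-06). ACSL1, which activates long-chain fatty acids to their CoA esters, had the largest fall, from 5.43, 5.72 and 5.82 FPKM to 1.74, 1.91 and 1.69 (log2 fold change -1.62, SE 0.07, adjusted p = 4.19e-06). CPT1A, which passes them into mitochondria, fell from 15.4, 15.7 and 16.0 FPKM to 11.1, 10.8 and 11.2 (log2 fold change -0.51, SE 0.03, adjusted p = 1.99e-05). Of the other carriers of long-chain acyl groups on the list, both named after their values were seen, CPT2 (-0.19, adjusted p = 0.461) and SLC25A20 (0.09, adjusted p = 0.387) did not pass. PDK4, a kinase that spares glucose, was under the filter at 12, 22 and 14 reads against 27, 47 and 33, 2.37-fold higher in summed reads scaled to depth (exact 95% interval 1.67 to 3.41). It did not pass with limma without the filter (adjusted p = 0.0728) and passed with voom on reads (0.00842). ANGPTL4, an inhibitor of lipoprotein lipase, stood at 15 to 25 reads, with a counting interval of 0.894 to 1.99 for the ratio of Hep3B-KD to Hep3B-Con.

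VDR was under the filter. It gave 59, 24 and 26 reads in Hep3B-Con (0.592, 0.243 and 0.275 FPKM) and 15, 8 and 26 in Hep3B-KD (0.167, 0.0878 and 0.276 FPKM). The groups overlapped, and Hep3B-Con replicate 1 held more than the other two control libraries together. Summed reads scaled to depth were 2.09-fold lower in Hep3B-KD (exact 95% interval 1.48 to 2.99) and 1.45-fold lower without that library (0.961 to 2.20). Neither limma without the filter (log2 fold change -0.75, SE 0.42, adjusted p = 0.272) nor voom on reads (-1.07, adjusted p = 0.0691) called it.

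CYP24A1, which degrades active vitamin D and is the best known VDR target, was at a lower level in Hep3B-KD. It gave 51, 45 and 57 reads in Hep3B-Con (0.731, 0.652 and 0.862 FPKM) and 4, 0 and 5 in Hep3B-KD (0.0635, 0 and 0.0759 FPKM). Summed reads scaled to depth were 16.0-fold lower (exact 95% interval 8.20 to 35.6), and limma without the filter gave a log2 fold change of -2.57 (SE 0.32, adjusted p = 0.00142). Of the 9 VDR target genes listed, only CD14 was tested by limma, and it was not called (log2 fold change -0.27, adjusted p = 0.326, unadjusted p = 0.261 in limma). The 0 calls in limma thus rest on this 1 gene, which voom on reads with the same filter did not call either, whereas CYP24A1 passed without the filter in limma, as given above, and in voom (adjusted p = 3.76e-05). Of the 4 genes of vitamin D handling, 3 were tested and all 3 were called, where 59.9% of all genes were. DHCR7, which turns the precursor of vitamin D into cholesterol, fell from 66.1, 65.6 and 64.8 FPKM to 15.9, 15.0 and 16.6 (log2 fold change -2.04, SE 0.04, adjusted p = 2.50e-07). CYP2R1, which starts the activation of vitamin D, rose from 3.91, 4.25 and 4.16 FPKM to 6.35, 6.36 and 6.78 (log2 fold change 0.65, adjusted p = 6.81e-05). GC, the vitamin D carrier of plasma, rose by 0.40 on the log2 scale and is named as the last of the 3.

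**Figure D4:**
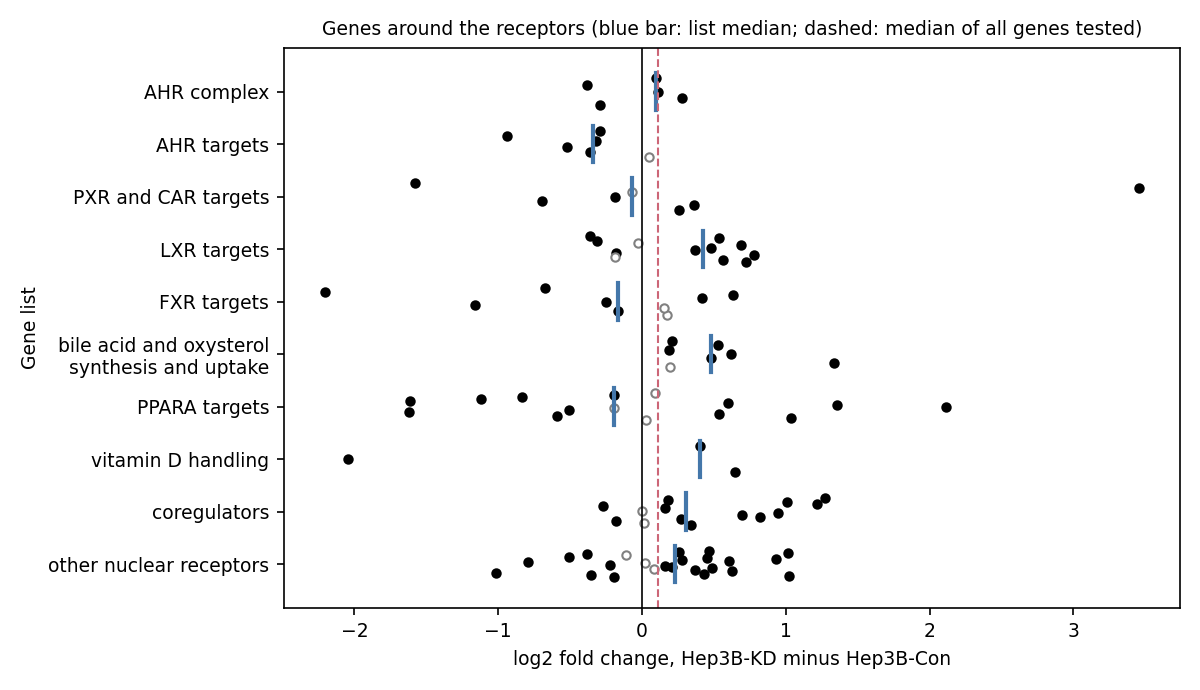
Log2 fold change, Hep3B-KD minus Hep3B-Con, of each tested gene in 10 lists, filled where the adjusted p is under 0.05, with a blue bar at the list median and a dashed line at the median of all genes tested (0.11). The AHR target list lies mostly to the left of 0, and the bile acid and coregulator lists mostly to the right. The LXR, FXR, PXR, CAR and PPARα target lists spread over both sides.

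Of 16 coregulators that these receptors recruit, 14 were tested, 10 were higher, 2 were lower and 2 did not pass, with a median of 0.31. Among all genes 36.1% were called higher and 23.8% lower, and the difference from these shares was not tested. TBL1XR1, part of a nuclear receptor corepressor complex, had the largest rise of those tested, from 5.98, 6.39 and 5.81 FPKM to 15.0, 14.8 and 14.5 (log2 fold change 1.27, SE 0.04, adjusted p = 2.06e-06). NRIP1, a ligand-dependent corepressor, rose from 3.21, 3.32 and 3.73 FPKM to 8.50, 7.56 and 8.15 (log2 fold change 1.22, SE 0.07, adjusted p = 1.73e-05). PPARGC1A, which encodes the coactivator PGC-1α, rose from 0.414, 0.619 and 0.503 FPKM to 1.14, 1.15 and 1.06 (log2 fold change 1.01, SE 0.19, adjusted p = 0.00338). Coactivator and corepressor genes were thus both among the rises.

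Of the other nuclear receptor genes, 36 were in the table and 24 were tested, with 14 higher, 7 lower and 3 that did not pass, and a median of 0.23. Over all genes 36.1% were called higher and 23.8% lower, and the difference from these shares was not tested. ESRRG, an orphan receptor of energy metabolism, had the largest rise among those tested, from 0.308, 0.374 and 0.292 FPKM to 0.780, 0.793 and 0.712 (log2 fold change 1.03, SE 0.23, adjusted p = 0.00775). It passed the filter only through its level in Hep3B-KD. So did RORA, named after its values were seen, at 0.360 FPKM on average in Hep3B-Con and 0.828 in Hep3B-KD (log2 fold change 1.02). These 2 were the only genes of the list called at least 2-fold higher. NR4A3, under the filter and named after its values were seen, had 2, 1 and 4 reads in Hep3B-Con and 8, 10 and 11 in Hep3B-KD, 4.41-fold higher scaled to depth (exact 95% interval 1.89 to 11.9, limma without the filter adjusted p = 0.0457). NR1D1, the circadian repressor REV-ERBα, had the largest fall, from 4.50, 3.90 and 5.53 FPKM to 2.62, 2.38 and 1.76 (log2 fold change -1.01, SE 0.18, adjusted p = 0.00248), with 9.49% of its exon bases in THRA on the opposite strand. HNF4A, named above, fell from 56.1, 56.0 and 56.5 FPKM to 43.3, 44.8 and 43.7 (log2 fold change -0.35, SE 0.02, adjusted p = 1.64e-05). NR5A2, which encodes LRH-1, a receptor that SHP represses, rose from 16.1, 15.9 and 16.0 FPKM to 19.3, 19.3 and 19.8 (log2 fold change 0.28, SE 0.03, adjusted p = 0.000113). NR2F2, which encodes COUP-TFII, rose from 10.3 ± 0.0615 to 11.9 ± 0.272 FPKM (log2 fold change 0.21, adjusted p = 0.00129). Among the nuclear receptor genes over the filter, NR1H4 had the largest log2 fold change, a description of this one comparison without a test.

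**Figure D5:**
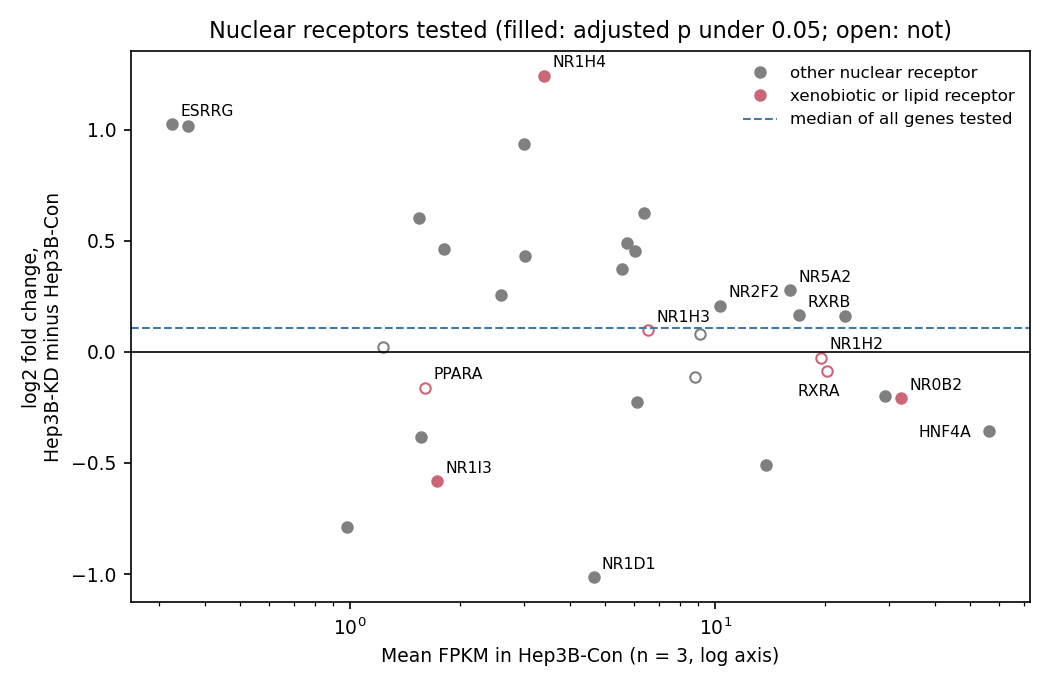
Log2 fold change, Hep3B-KD minus Hep3B-Con, against mean FPKM in Hep3B-Con on a log axis for each nuclear receptor gene tested, filled where the adjusted p is under 0.05, with a dashed line at the median of all genes tested (0.11). NR1H4 is the highest point at 1.24 and NR1D1 the lowest at -1.01. NR0B2, RXRA and NR1H2, the lipid and xenobiotic receptors of highest level in this figure, lie under 0, and of these only NR0B2 was called.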

How the data were processed

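The authors deposited FPKM values for 29908 Ensembl genes, 1 column for each of 6 libraries, 3 Hep3B-Con and 3 Hep3B-KD, and 0 other columns of values. Libraries were made with a TruSeq RNA kit per the study's methods. The submitters' processing notes name Bowtie2 2.0.6, TopHat2 2.0.12 and the build GRCh37. With the exon lengths of GENCODE release 29 (GRCh38), 100% of values gave whole reads (tolerance 0.01), so that annotation was used here for symbols, lengths and overlaps, and the disagreement is unresolved. Counting tool and strand setting are not given in the sources used here. Depth was 15861039 to 17572714 reads.

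Values were transformed to log2(FPKM + 0.1), the 14221 genes averaging 0.5 FPKM or more were kept, and the groups were compared with limma 3.58.1 (lmFit, eBayes with trend) in R 4.3.3 and Benjamini-Hochberg adjustment over all of them. Genes under the filter are given as recovered reads, with exact (Clopper-Pearson) 95% intervals for the share of reads, turned into ratios. Adding 0.1 shrinks the fold changes of low genes. On simulated reads (assumed dispersion 0.01, 14213 genes tested), 50 genes were changed at each fold size. The fit recovered 32% of genes changed 1.5-fold, 76% of those changed 2-fold, 88% at 4-fold and 90% at 8-fold, with 11 false calls. In the data 59.9% of genes were called, far more than were changed in the simulation. The recovered shares therefore do not give the share of changes found in the data.

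The receptors and gene lists were chosen with earlier results of these data known. Named were the receptors, a fixed set of indicator genes, DAGLA, and the largest rise and fall of each of the 12 lists among called genes; others are said to be named after their values were seen. Some genes that this rule takes are not reported here. Promoter sequences came from RefSeq (GRCh38.p14) and the hairpin target from the study's supplementary text. Tables were handled with Python 3.11.15, pandas 2.3.3 and scipy 1.17.1.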

Additional observations from a re-analysis of the deposited data

How the results depend on the processing

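Alternatives to the filter, pseudocount, scaling and variance model, and each library left out in turn, were run for the counts of called genes and each receptor tested. NR1H4, NR1I3 and AHR kept their direction and call under all 16. Members called numbered 4 in most settings, 6 after median centring, which sets the shift of all genes (0.11) to 0.01, and 3 to 5 with 1 library left out. The share of all calls that were higher moved from 60.2% to 48.5% after median centring. After that centring NR1H2 was called at -0.13 and RXRA at -0.19, RXRB no longer was, leaving 0 partners, the AHR complex had 3 calls, and NR1H3 turned to -0.0045. Quantile normalization gave NR1H2 0.0098, NR1H3 -0.0044, NR0B2 -0.14 (not called) and PPARA -0.41 (called). Rescaling to TPM turned NR1H2 to 0.00054. Voom on reads called RXRA at -0.084. Without the filter, 10 PXR and CAR targets and 1 VDR target were called. With 1 library left out, log2 fold changes ran from -0.27 to -0.15 for NR0B2, from 0.074 to 0.15 for NR1H3 and from -0.12 to -0.063 for RXRA, and VDR targets called from 0 to 1. The cause of these shifts was not tested, save that more or fewer genes enter under another filter. The same replicate numbers in the 2 groups did not pair the libraries, whose deviations correlated at -0.0134, -0.0656 and -0.0011; a replicate block left 7919 genes and 4 receptors called. Depth limits VDR and NR1I2, with 109 and 6 reads in Hep3B-Con and 49 and 1 in Hep3B-KD.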
